A study of Homo sapiens with 16 samples.

Results

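Proteins bound for secretion, for membranes or for the lumen of the secretory organelles enter the endoplasmic reticulum (ER) and leave it in vesicles for the Golgi. The described genes are 50 that encode this route, chosen by gene symbol: the Sec61 channel and its partners, the signal peptidase, the TRAP (translocon-associated protein) complex, the receptor of the signal recognition particle (SRP), the p24 and other cargo receptors, the COPII and COPI coats with their small GTPases, fusion proteins of the SNARE type, and the KDEL receptors. Each symbol matched 1 row of the 60623 listed genes. Polyadenylated RNA was measured in 16 libraries of 2 human tumour cell lines, Caco-2 (colon) as the gut and HepG2 (liver) as the liver compartment of a microfluidic chip. Each line was held alone (mono-culture) or joined by flow to the other line (co-culture), without or with 1 mM of palmitic plus oleic acid (free fatty acids, FFA) in medium with fatty acid-free albumin; the labels give 1 day of treatment, but the study's text also describes a longer one, so the duration is uncertain. These 8 groups (Caco-2 or HepG2, mono-culture or co-culture, control or FFA) held 2 replicates each. Both lines are cancer lines, so the compartments model intestine and liver only as far as these lines do.

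In the cell, signal sequences emerging from ribosomes are recognised by SRP, docked at its receptor and passed through the Sec61 channel, where the signal peptidase removes them. COPII vesicles then carry cargo out of the ER, with p24 proteins, SURF4 and lectins such as LMAN1 selecting it, and COPI vesicles return escaped ER residents that KDEL receptors have bound. Hepatocytes, which secrete most plasma proteins, are known for an extensive ER, and the unfolded-protein response is known to adjust the supply of many of these components.

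Libraries held 49634 to 1657430 reads (9841406 in all), so that 1 read stood for 0.603 to 20.1 CPM (each gene's reads after all libraries are scaled to 1 total). The shallowest, HepG2 co-culture FFA replicate 2, held 44 of the 50 members with at least 1 read and 36 with at least 3, with a median of 6 reads per member, and a count of 0 there allows a level up to 60.4 CPM. Of 10 liver markers 7 were higher in every HepG2 library than in every Caco-2 library. Of 10 intestinal markers only CDH17 was higher in every Caco-2 library, and CDX1 and ISX had 0 reads in all libraries labelled Caco-2. The study's text describes its mRNA-seq as done in independent experiments. The library labels name replicates by number only, so which libraries came from separate experiments is not given. The p-values measure the spread between these libraries, and how much of it is technical is not known. In bulk RNA, fewer cells of a type and less RNA per cell cannot be told apart.

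In HepG2 a larger share of the reads fell on the transport members with FFA. The 50 members took 0.800% to 0.857% of the reads of the 4 HepG2 control libraries and 0.912% to 0.978% of the 4 FFA libraries, with no overlap. In Caco-2 the shares overlapped, at 0.571% to 0.624% in control and 0.562% to 0.634% with FFA. Every HepG2 FFA library was also shallower (49634 to 424538 reads) than every HepG2 control library (430815 to 1657430 reads), and the part of depth in these differences was not tested. Summed CPM in HepG2 was higher in every FFA library than in every control library for the p24 receptors (1029 to 1339 against 798 to 869), the COPII coat (492 to 645 against 384 to 410.2), the COPI coat with its ARF GTPases (883 to 1217 against 676 to 743) and the group of SURF4, LMAN1 and LMAN2 (403 to 544 against 321 to 352). The FFA and control ranges overlapped for the other groups, at 1773 to 2067 against 1930.3 to 2314 for the Sec61 group, 1705 to 1894 against 1615 to 1819 for the signal peptidase and 1349.9 to 1939 against 1437 to 1709 for the TRAP complex. They also overlapped for the SRP receptor (60.4 to 186 against 99.8 to 131), the ER-Golgi SNAREs (129 to 161 against 87.7 to 144) and the KDEL receptors (367 to 685 against 262 to 377). These shares and sums are descriptions without a test, on the scale of each library's total reads. In HepG2, edgeR's TMM scaling factors were 1.12 and 1.18 in co-culture FFA and 0.967 and 1.04 in mono-culture FFA. The HepG2 controls had factors of 0.900 to 0.960. Divided by these factors, the members' shares in the FFA and control libraries of HepG2 overlap.

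**Figure D1:**
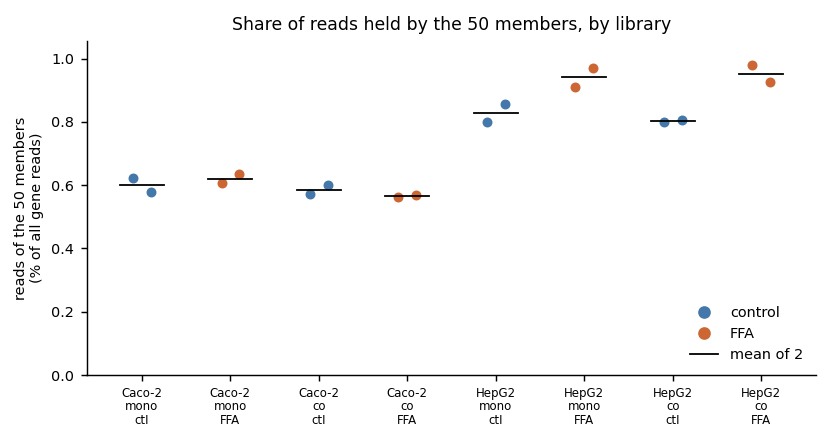
Percentage of all gene reads held by the 50 members (vertical axis, from 0) in each of the 16 libraries, grouped along the horizontal axis by line, culture and treatment. Points are libraries and lines are means of 2. The 4 HepG2 FFA libraries sit at 0.912% to 0.978%, above the 4 HepG2 controls at 0.800% to 0.857%, while the Caco-2 groups overlap.

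TMED2 was the 1 member that limma called for FFA in HepG2, as a change averaged over the cultures. It is a p24 protein that cycles between ER and Golgi and takes part in cargo selection and vesicle formation. Its level was 71.9 and 70.4 CPM in mono-culture control and 146 and 204 CPM in mono-culture FFA. In co-culture it was 64.5 and 55.0 CPM without and 218 and 242 CPM with FFA. All 4 FFA libraries lay above all 4 controls, by 2.46-fold of the means in mono-culture and 3.84-fold in co-culture. The limma change averaged over the cultures was 1.60 ± 0.17 (SE, log2(CPM + 1); limma adjusted p = 0.0372). Of 14430 genes tested 0.0762% passed, and TMED2 was 1 of 50 members to do so. The edgeR quasi-likelihood test on the reads gave 1.39 (edgeR adjusted p = 1.9e-05). In Caco-2, TMED2 ranged from 37.6 to 82.1 CPM over the 8 libraries with no separation by FFA, and the fitted change was -0.44 ± 0.25 (limma adjusted p = 0.829). The difference between the lines in the FFA change was 2.04 ± 0.35 on the log2 scale (limma adjusted p = 0.0510; edgeR 1.66, adjusted p = 0.000141), so limma placed it just outside the threshold and edgeR inside. The limma call rests on the libraries used: the adjusted p rose to 0.0853 without HepG2 co-culture control replicate 2, to 0.0751 without co-culture FFA replicate 2 (12 reads of TMED2) and to 0.180 without mono-culture control replicate 1.

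The TMED2 promoter is shown with those of ARF1, SEC62, SSR3 and SSR4, because the unfolded-protein response is known to act on genes of this route through short promoter motifs. These 4 are members that edgeR called in a comparison of FFA or co-culture below, and they were picked because a stretch before 1 of their starts holds the 8-letter motif. COPB1 and KDELR3 also hold it in this stretch, but edgeR called neither in those comparisons. Among the 4, edgeR called ARF1 higher with FFA in HepG2, and SEC62 for a lower FFA change in HepG2 than in Caco-2. It called SSR3 lower in co-culture in Caco-2, and SSR4 lower in co-culture in HepG2. Each line gives 150 bases that end just before an annotated start, from RefSeq on GRCh38.p14, with capitals marking TGACGTGG (a sequence bound by ATF6 and XBP1, factors of that response) or the 5-letter half-site CCACG, on either strand. Every TGACGTGG holds the half-site within it. The places are chr12:123584402-123584551 (+) for TMED2, chr1:228082558-228082707 (+) for ARF1, chr3:169966657-169966806 (+) for SEC62, chr3:156554126-156554275 (-) for SSR3 and chrX:153794518-153794667 (+) for SSR4.
TMED2: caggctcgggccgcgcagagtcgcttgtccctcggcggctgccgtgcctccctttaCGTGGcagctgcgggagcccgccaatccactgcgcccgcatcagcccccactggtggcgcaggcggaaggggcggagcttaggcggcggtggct
ARF1: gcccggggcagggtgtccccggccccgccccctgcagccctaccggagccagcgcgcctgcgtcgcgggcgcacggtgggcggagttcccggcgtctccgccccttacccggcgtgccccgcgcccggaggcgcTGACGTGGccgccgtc
SEC62: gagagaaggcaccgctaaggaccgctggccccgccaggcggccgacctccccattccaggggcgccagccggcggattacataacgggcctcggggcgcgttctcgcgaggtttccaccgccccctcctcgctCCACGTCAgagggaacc
SSR3: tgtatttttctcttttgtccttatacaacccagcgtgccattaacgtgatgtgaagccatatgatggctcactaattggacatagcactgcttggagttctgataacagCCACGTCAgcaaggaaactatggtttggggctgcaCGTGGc
SSR4: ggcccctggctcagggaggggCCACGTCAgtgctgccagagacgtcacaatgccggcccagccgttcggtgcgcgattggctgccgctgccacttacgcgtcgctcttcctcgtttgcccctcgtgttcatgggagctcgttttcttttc
In ARF1 the 8-letter motif begins 16 bases before the start, in SEC62 17 bases, in SSR3 41 bases and in SSR4 129 bases before it, and TMED2 holds only a half-site in this stretch. Of the other members that edgeR called for FFA or co-culture, SURF4, LMAN2, SEC63, COPE and SEC61B had a sequence at hand. Their stretch holds no 8-letter motif, and in LMAN2, COPE and SEC61B no half-site either. The other annotated starts of ARF1, SSR3 and SSR4 have no 8-letter motif in their stretch. Windows of 300 bases (250 before to 50 after a start) were present for 42 of the 50 members, and some members have several starts. TGACGTGG was in a window of 10 of these 42 (23.8%), namely ARF1, COPA, COPB1, COPB2, KDELR3, SEC23A, SEC24A, SEC62, SSR3 and SSR4, against 0.927% of 27305 genes with windows and 1.17% of the 9172 of them expressed in HepG2. The half-site was in 38 of 42 (90.5%), against 42.1% of all genes and 56.5% of those expressed in HepG2. The longer ER stress response element (CCAAT, 9 bases, CCACG) was in no member window and in 0.0916% of genes, and its variant ERSE-II also in no member window. These matches are descriptions of letters, held by members that passed a test and by members that did not.

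**Figure D2:**
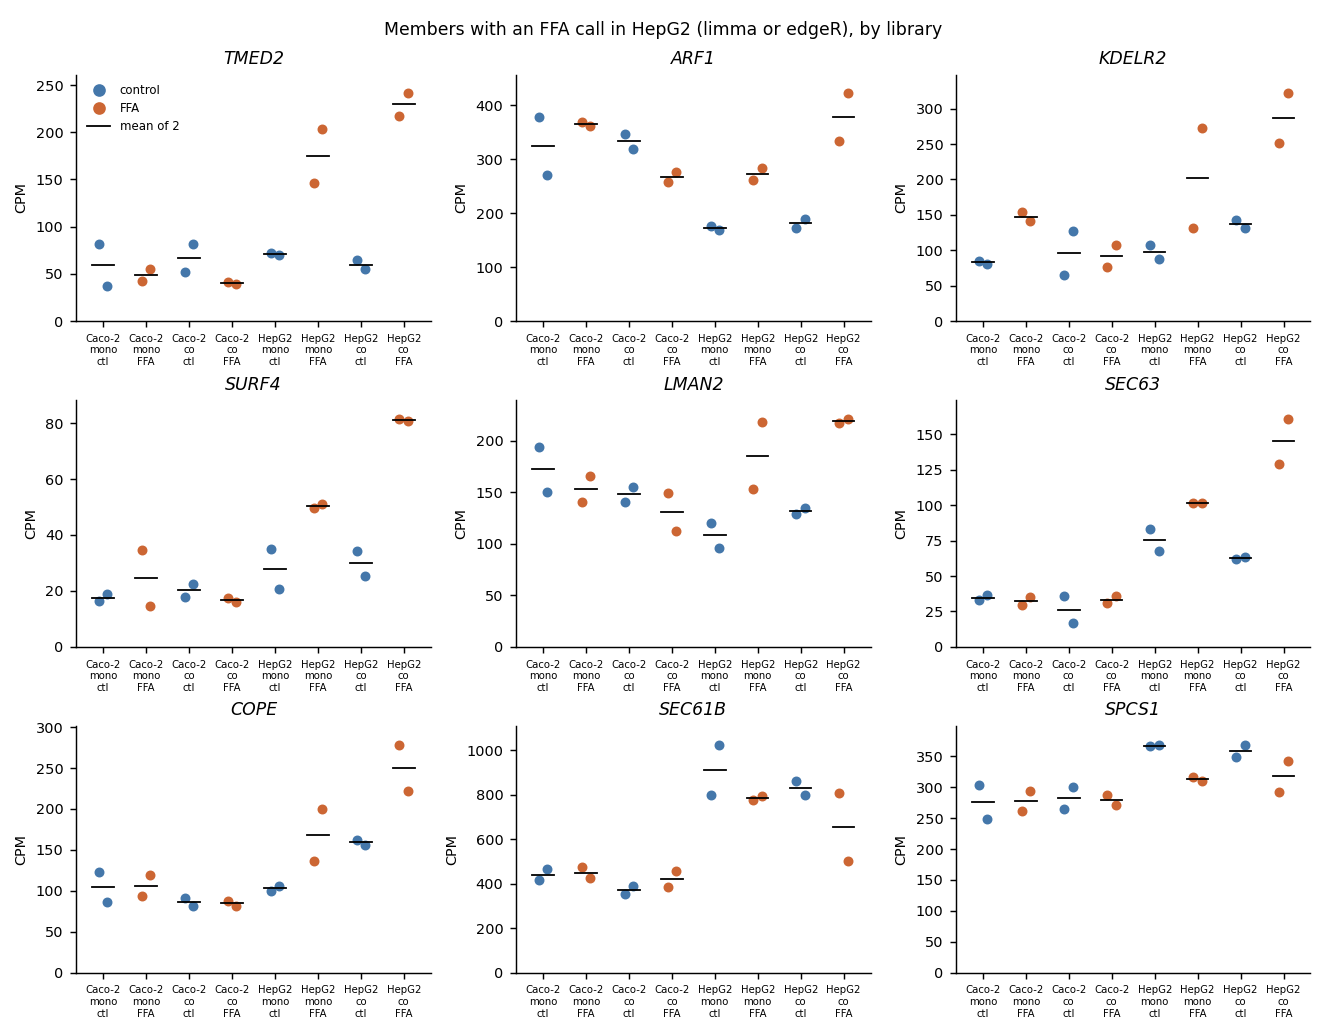
CPM (vertical axes, from 0) of 9 members called for FFA in HepG2 by limma or edgeR, in each of the 16 libraries by line, culture and treatment. Points are libraries and lines are means of 2. TMED2, ARF1, SURF4, LMAN2 and SEC63 are higher in all 4 HepG2 FFA libraries than in the 4 HepG2 controls, KDELR2 and COPE overlap, and SEC61B and SPCS1 are the 2 that edgeR called lower.

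No other transport member passed limma's threshold in the averaged FFA contrast of HepG2. The members given next are those that edgeR called and not those of largest change, since a COPII member without a call reached 1.47. By edgeR, which tested 44 members and called 13.3% of 4030 genes, 9 members passed, 7 higher and 2 lower. The background of edgeR was 4.91% called higher and 8.36% called lower. ARF1, the GTPase that recruits the COPI coat, was at 176 and 168 CPM in mono-culture control, 261 and 284 CPM in mono-culture FFA, 173 and 189 CPM in co-culture control and 333 and 423 CPM in co-culture FFA. Its FFA libraries all lay above the controls, at a limma change of 0.85 ± 0.13 (limma adjusted p = 0.0618; edgeR 0.64, adjusted p = 0.00164). KDELR2, a receptor that retrieves ER residents by their C-terminal signal, was at 107 and 88.0 CPM, then 132 and 273 CPM with FFA in mono-culture, and at 142 and 131 CPM, then 252 and 322 CPM with FFA in co-culture. One mono-culture FFA library lay within the range of the controls, and edgeR gave 0.81 (adjusted p = 0.00366; limma 1.01 ± 0.23, adjusted p = 0.171).

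Of the 3 remaining cargo receptors, edgeR called 2 higher. SURF4, a cargo receptor for secreted proteins, was at 34.8, 20.5, 34.4 and 25.4 CPM in the control libraries and 49.5, 50.9, 81.6 and 80.6 CPM with FFA. These groups did not overlap, and the change was 1.15 ± 0.26 (limma adjusted p = 0.165; edgeR 1.01, adjusted p = 0.0214). LMAN2, a lectin of the early secretory pathway, was at 121, 95.8, 129 and 135 CPM against 153, 218, 218 and 222 CPM, again without overlap, with 0.74 ± 0.17 (limma adjusted p = 0.157; edgeR 0.57, adjusted p = 0.0201). Its relative LMAN1, a lectin that carries coagulation factors, gave -0.03 ± 0.26 (limma adjusted p = 0.975; edgeR -0.05). SEC63, which helps Sec61 take up chains and engages the chaperone HSPA5, was at 83.6, 67.4, 62.1 and 63.4 CPM in control and 101, 102, 129 and 161 CPM with FFA, without overlap (0.81 ± 0.18, limma adjusted p = 0.147; edgeR 0.62, adjusted p = 0.0391). COPE, the epsilon subunit of the COPI coat, was at 99.8, 107, 162 and 156 CPM against 137, 200.1, 279 and 222 CPM. Its groups overlapped, since the co-culture controls lay above 1 mono-culture FFA library (0.66 ± 0.17, limma adjusted p = 0.192; edgeR 0.50, adjusted p = 0.0360).

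The 2 members that edgeR called lower, against 8.36% of genes, were SEC61B and SPCS1. Both belong to the entry machinery, as does SEC63, which edgeR called higher. SEC61B, the beta subunit of the channel, was at 798, 1026, 861 and 799 CPM in the HepG2 controls and 775, 797, 809 and 504 CPM with FFA. The ranges overlapped, and 25 reads stood behind the lowest value. The change was -0.29 ± 0.15 (limma adjusted p = 0.437; edgeR -0.41, adjusted p = 0.0246). SPCS1, a subunit of the signal peptidase, was at 367, 368, 349 and 369 CPM against 316, 309, 292 and 343 CPM, so that every FFA library lay below every control (-0.21 ± 0.10, limma adjusted p = 0.412; edgeR -0.41, adjusted p = 0.0264). DESeq2 on the same reads called 3 members higher (TMED2, ARF1, KDELR2) and 5 lower (SEC61B, SEC61G, SEC62, SPCS1, SSR4). Of the 1181 genes to which it gave an adjusted p, it called 3.73% higher and 30.1% lower.

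Of the 50 members, 12 had all 4 HepG2 FFA libraries above all 4 controls (SEC63, TRAM1, SPCS3, TMED2, TMED4, TMED9, SEC13, SEC31A, SAR1B, ARF1, SURF4 and LMAN2), where 4.16% of genes tested did so. SPCS1 alone had all below, against 3.36% of genes. At an unadjusted limma p under 0.05 there were 15 members, against 13.8% of genes. Those of the 10 smallest p not yet given were TMED9 (0.55 ± 0.12, limma adjusted p = 0.161), the signal peptidase subunit SPCS3 (0.61 ± 0.16, limma adjusted p = 0.200) and SAR1B, a GTPase that starts COPII assembly and is needed for lipoprotein export (0.60 ± 0.18, limma adjusted p = 0.219). The fitted change was above 0 for 8 of 9 COPII members, 6 of 7 p24 members, 6 of 9 COPI and ARF members, 2 of 2 SNAREs, 2 of 3 KDEL receptors and 2 of 3 other cargo receptors. It was above 0 for 3 of 6 in the Sec61 group, 3 of 5 signal peptidase subunits, 3 of 4 TRAP subunits and 1 of 2 SRP receptor subunits. Differences between these groups were not tested. The counts by group and those of libraries without overlap are on the scale of total reads and were not repeated after rescaling. The read filter of edgeR kept 44 of the 50 members but 4030 of the 14430 genes tested by limma. The shares over all genes therefore cover a larger part of genes with few reads than the members hold. The median over the members was 0.36 and over all genes tested, with their larger part of genes with few reads, -0.07. That median depended on the scale: after median-ratio rescaling it was 0.08 (all genes -0.26), with 27 instead of 36 members above 0, and by edgeR 0.21 (all genes 0.03). TMED2, ARF1, KDELR2, SURF4, LMAN2, SEC63 and COPE were above 0, and SEC61B and SPCS1 below 0, under each scaling tried.

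Beside depth, transcript length moved with FFA in HepG2. The median annotated transcript length per read was 1174 to 1207 nt in the HepG2 controls and 1291 to 1542 nt in the FFA libraries, while the Caco-2 ranges overlapped (1140 to 1210 nt against 1140 to 1193 nt). Among the members, SEC61G (425 nt) and SEC61B (564 nt) have short transcripts, while ARF1 has 1840 nt, TMED2 2544 nt and SPCS1 3786 nt. Across the 50 members, which share all libraries, the rank correlation of transcript length with the HepG2 FFA change was 0.105. The part of transcript length in the FFA changes was not tested.

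**Figure D3:**
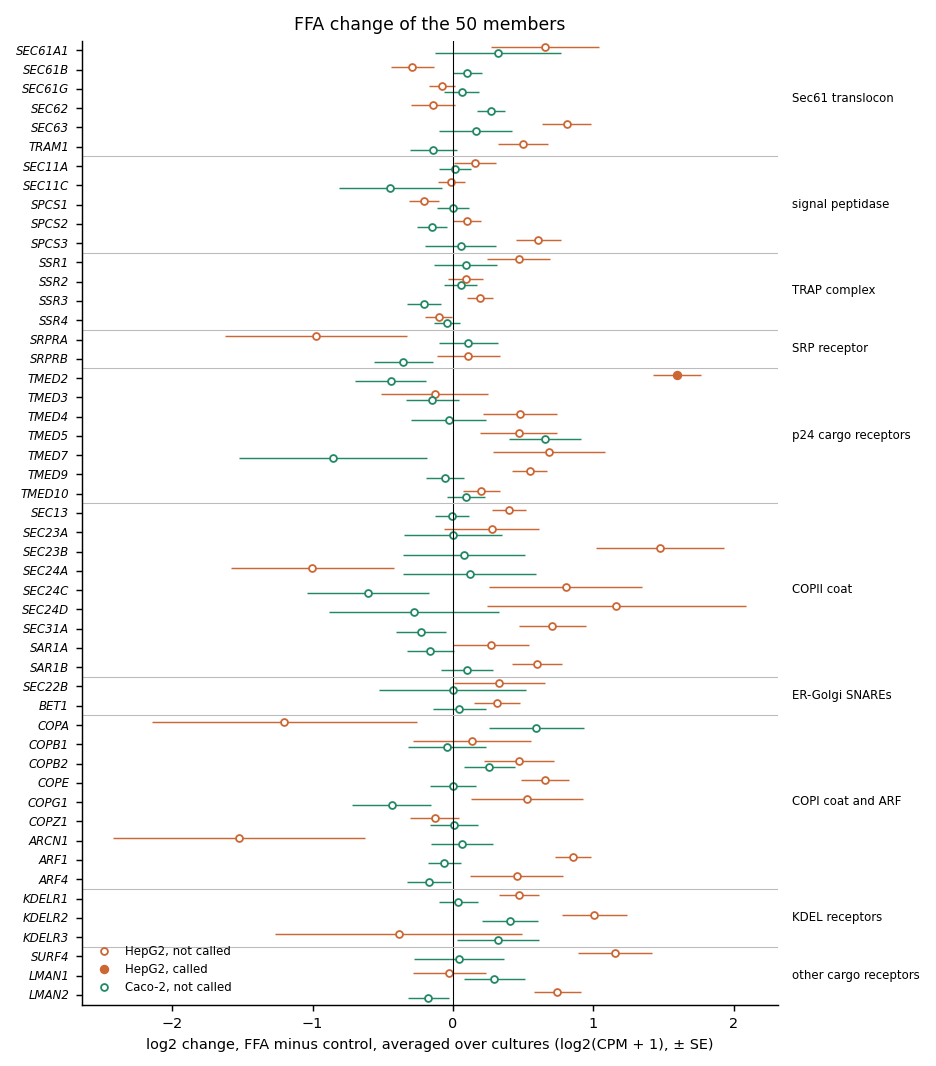
Log2 change with FFA averaged over mono-culture and co-culture (horizontal axis, log2(CPM + 1), bars are SE) for each of the 50 members, ordered by role along the vertical axis. HepG2 is orange and Caco-2 green, and filled points passed limma's threshold. TMED2 in HepG2 at 1.60 is the 1 filled point, and 36 of 50 HepG2 points lie above 0.

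Within single cultures limma called no member for FFA in HepG2, while edgeR and DESeq2 called some. In mono-culture limma called 0 members (0% of all genes; edgeR 0.744%), and edgeR called TMED2 (1.14, adjusted p = 0.0108). In co-culture limma called 0 members (0% of genes), with TMED2 at 1.93 ± 0.25 (limma adjusted p = 0.0510), and edgeR called TMED2 (1.64, adjusted p = 0.00125) and ARF1 (0.75, adjusted p = 0.0204) against 7.99% of genes. DESeq2 called 3 there, TMED2 higher (1.52, adjusted p = 0.000403) and SEC61B (-0.64, adjusted p = 0.0411) and SSR4 (-0.71, adjusted p = 0.00802) lower, against 27.4% of genes with an adjusted p. Some limma alternatives also called 1 member in co-culture, as given with the other settings. The other members with the smallest p were ARF1 (0.66 ± 0.18) and LMAN2 (0.76 ± 0.24) in mono-culture and SEC63 (1.19 ± 0.25) in co-culture. Neither ARF1 nor LMAN2 in mono-culture passed by either tool, nor did SEC63 in co-culture. The interaction of FFA with culture passed for 0 members in HepG2 and 0 in Caco-2 (0% of genes in both). Those with the smallest p in HepG2 were SRPRA, SEC23A and SSR4, and in Caco-2 ARF4, SEC24D and TMED7. The F-test over the 4 groups called 0 members by limma in HepG2 (0% of genes) and 0 in Caco-2 (0.155%). edgeR's test of the same groups called 6 in HepG2 (SSR4, TMED2, COPE, ARF1, ARF4, KDELR2), against 8.76% of genes, and 2 in Caco-2 (SSR3, ARF4), against 5.09%.

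In Caco-2 no member passed for FFA. limma called 0 of 50 in the averaged contrast (0% of genes), where edgeR also called 0 of 43 members tested (0.196% of genes), and 0 in mono-culture (0.00647%) and co-culture (0%). The smallest limma p belonged to SEC62, a partner of Sec61 in post-translational uptake, at 0.27 ± 0.10 (limma adjusted p = 0.829). Its levels were 301, 298, 337 and 297 CPM in control and 356, 362, 366 and 403 CPM with FFA. SEC62 was the 1 member whose Caco-2 FFA libraries all lay above the controls (1.15% of genes), and COPG1, a COPI subunit, was the 1 member with all below (0.744% of genes). KDELR2 changed by 0.41 ± 0.20, TMED5 by 0.66 ± 0.26, SRPRB by -0.35 ± 0.21, SSR3 by -0.21 ± 0.12, COPA by 0.59 ± 0.34, COPB2 by 0.26 ± 0.18 and SPCS2 by -0.15 ± 0.11 in fitted values, and none passed. SPCS2 is uncertain here, because 4 of its pseudogenes held 734 reads beside its own 3510. The median over members was 0.00. In single cultures the members with the smallest p were KDELR2 (0.82 ± 0.28), COPB2 (0.60 ± 0.26) and SEC24D (-2.47 ± 0.86, with at most 3 reads in any of those libraries) in mono-culture, and ARF4 (-0.77 ± 0.22), TMED7 (-2.47 ± 0.95) and TMED5 (0.94 ± 0.36) in co-culture.

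Whether the change with FFA differed between the lines was tested directly. By limma 0 members passed, against 0.0912% of genes. After TMED2, ARF1 came next with 0.92 ± 0.18 (limma adjusted p = 0.0731) and LMAN2 with 0.92 ± 0.23 (limma adjusted p = 0.133). By edgeR 5 members passed, against 7.92% of genes: TMED2 and ARF1 (0.57, adjusted p = 0.0380) with the higher change in HepG2, and SEC61B (-0.64, adjusted p = 0.0152), SEC62 (-0.75, adjusted p = 0.00523) and SPCS1 (-0.55, adjusted p = 0.0427) with the lower change in HepG2. The Caco-2 change of ARF1 by edgeR came from levels of 378 and 270.3 CPM in mono-culture control, 368 and 362 CPM in mono-culture FFA, 347 and 319 CPM in co-culture control and 259 and 276 CPM in co-culture FFA.

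Few members passed for co-culture. In Caco-2 limma called 0 without FFA (0.0971% of genes), 0 with FFA (0.0971%) and 0 averaged (0.453%). edgeR called ARF4, an ARF GTPase, lower in co-culture with FFA (-1.06, adjusted p = 0.00311; 3.85% of genes). Its levels were 151 and 161 CPM in mono-culture FFA and 70.8 and 82.5 CPM in co-culture FFA, and limma gave -1.02 ± 0.22 (adjusted p = 0.153). Averaged over treatments edgeR called SSR3, the gamma subunit of the TRAP complex (-0.57, adjusted p = 0.00380; limma -0.47 ± 0.12, adjusted p = 0.126), and ARF4 (-0.49, adjusted p = 0.0401), both lower, against 8.47% of genes. SSR3 was at 438, 434, 331 and 423 CPM in mono-culture and 273, 356, 245 and 302 CPM in co-culture. These ranges overlapped in 1 co-culture and 1 mono-culture library.

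In HepG2 limma called 0 members for co-culture without FFA (0% of genes), with FFA (0%) and averaged (0%). edgeR called 1 in the averaged contrast, SSR4, the delta subunit of the TRAP complex, at -0.46 (adjusted p = 0.0391; 1.17% of genes). SSR4 was at 666, 736, 841 and 728 CPM in mono-culture and 627, 687, 537 and 484 CPM in co-culture, with 1 co-culture library inside the mono-culture range, and limma gave -0.36 ± 0.09 (adjusted p = 0.557). SEC23A, a COPII coat subunit, was at 14.1 and 7.3 CPM in mono-culture FFA and 61.2 and 60.4 CPM in co-culture FFA, but those values stood on 6, 2, 9 and 3 reads (2.47 ± 0.47, limma adjusted p = 0.154). SRPRA, the alpha subunit of the SRP receptor, had 1 and 0 reads in the co-culture FFA libraries. Without FFA the smallest p belonged to BET1 (-0.67 ± 0.23), COPE (0.62 ± 0.24) and KDELR1 (0.38 ± 0.20).

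The largest differences among the members lay between the lines. Averaged over the 4 conditions, 33 of 50 passed limma's threshold, where 30.3% of 17544 genes did; 28 were higher in HepG2 (12.5% of genes) and 5 lower (17.9% of genes). The split was 22 higher and 8 lower after median-ratio rescaling and 28 and 9 by edgeR, which tested 46 members. All 8 HepG2 libraries lay above all 8 Caco-2 libraries for 13 members (4.3% of genes) and below for 3 (5.97% of genes). In mono-culture control alone 11 passed limma (10.6% of genes) and 23 passed edgeR (49% of genes). The members took 0.800% to 0.978% of HepG2 reads and 0.562% to 0.634% of Caco-2 reads. Since only 1 of 10 intestinal markers separated the lines, this comparison is between the libraries as labelled.

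Of the entry machinery, 5 of 6 members of the Sec61 group, 4 of 5 signal peptidase subunits, all 4 TRAP subunits and 1 of 2 SRP receptor subunits were higher in HepG2. SRPRA was lower (-1.49 ± 0.34), with 1 HepG2 library at 0, and SRPRB, its membrane partner, was higher (0.79 ± 0.17). SEC62 did not pass (0.18 ± 0.10). SEC11C, 1 of the 2 alternative catalytic subunits of the signal peptidase, ranged from 7.4 to 27.4 CPM in Caco-2 (median 12.1) and from 534 to 634 CPM in HepG2 (median 577), a difference of 5.38 ± 0.16 (limma adjusted p = 8.57e-12). The alternative subunit SEC11A ranged from 293 to 382 CPM and from 247 to 423 CPM, and did not pass (-0.19 ± 0.10, limma adjusted p = 0.166). Per kilobase of transcript, SEC11A was at 317 CPM in Caco-2 and 280.0 in HepG2, and SEC11C at 17.2 in Caco-2 and 726 in HepG2. Thus the order of the pair on that scale was opposite in the lines. SPCS3 was higher by 1.92 ± 0.15, with 17.0 to 38.3 CPM in Caco-2 and 78.9 to 169.9 CPM in HepG2. Those higher in the Sec61 group included SEC63 (1.53 ± 0.17), SEC61B (0.90 ± 0.10) and SEC61G (0.74 ± 0.08). SEC61A1, the channel's pore-forming subunit, was higher by 1.45 ± 0.29 but had only 163 reads over all libraries, at a mean of 28.6 CPM in HepG2 beside 796 for SEC61B and 593 for SEC61G, its partners in the same complex. Per kilobase of transcript these levels were 8.0, 1412 and 1395 CPM. The reads are of cDNA molecules and not of fragments, and SEC61A1 has the longest transcript of the 3, so that dividing by length widens the gap. Of the TRAP subunits SSR1 differed by the widest margin (1.63 ± 0.16; 27.7 to 47.0 CPM against 85.9 to 178 CPM).

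Most p24 and other cargo receptors were higher too, and the coats divided. LMAN1 ranged from 34.6 to 65.7 CPM in Caco-2 and from 101 to 245 CPM in HepG2 (1.89 ± 0.18, limma adjusted p = 2.15e-06), and SURF4 was higher by 1.11 ± 0.21. LMAN2 did not pass (0.05 ± 0.12). The KDEL receptors gave 2 of 3 higher, with the lowest at -1.06 without a call, and the ER-Golgi SNAREs 1 of 2. Of 7 p24 members 5 were higher, with TMED5 (1.80 ± 0.20) and TMED7 (1.57 ± 0.37) ahead of TMED2 (1.13 ± 0.18), TMED9 (0.94 ± 0.10) and TMED10 (0.62 ± 0.10). Without FFA the lines were close for TMED2, at 71.2 CPM in HepG2 and 59.9 in Caco-2 (mono-culture), and 59.8 and 66.7 (co-culture). With FFA its means were 175 CPM in HepG2 and 48.3 in Caco-2 (mono-culture), and 230 and 40.2 (co-culture). TMED7 shares its locus with a readthrough gene. Of 9 COPII members 3 were higher (SEC13, SEC23A, SEC23B) and 2 lower. SEC23A and SEC23B had their highest means in HepG2 co-culture FFA (60.8 and 43.9 CPM), on few reads. In mono-culture FFA SEC23A was lower in HepG2 (10.7 against 15.5 CPM), and after thinning its line difference was -1.51. SEC23B was at 10.1 CPM in HepG2 and 7.8 in Caco-2 in co-culture control. SAR1A was at 90.3 to 161 CPM in Caco-2 and 34.0 to 69.1 CPM in HepG2 (-1.40 ± 0.16, limma adjusted p = 1.4e-05), while its paralog SAR1B overlapped, at 65.7 to 129 CPM against 53.7 to 121 CPM (-0.28 ± 0.14, limma adjusted p = 0.145). SEC24A, a cargo-binding coat subunit, was at 4.1 to 12.8 CPM in Caco-2 and at 0 to 3.9 CPM in HepG2 (-2.24 ± 0.40), with 0 reads in 3 of the HepG2 FFA libraries. SEC24A and SAR1B overlap each other in antisense on the chromosome. In the COPI group COPE was higher (0.76 ± 0.12), and ARCN1, the delta subunit (-1.95 ± 0.48), and ARF1 (-0.42 ± 0.09) were lower. These averages did not hold in every condition. COPE was at 103 CPM in HepG2 and 105 in Caco-2 in mono-culture control, but 159 and 86.5 in co-culture control. ARF1 was lower in HepG2 in mono-culture control (172 against 324 CPM), mono-culture FFA (273 against 365) and co-culture control (181 against 333). In co-culture FFA it was higher (378 against 267 CPM). For ARCN1 1 HepG2 library stood at 0.

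**Figure D4:**
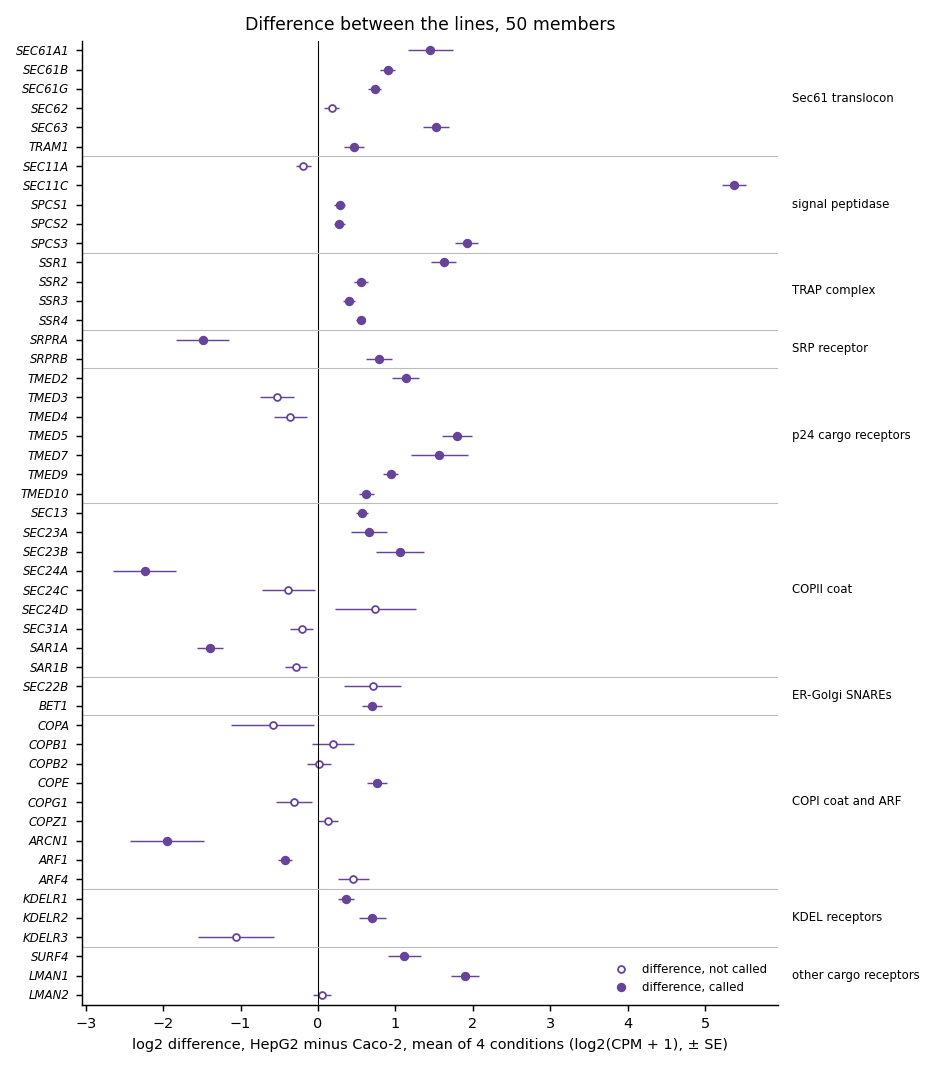
Difference between HepG2 and Caco-2 averaged over the 4 conditions (horizontal axis, log2(CPM + 1), bars are SE) for the 50 members by role. Filled points, 33 of 50, passed limma's threshold, and SEC11C at 5.38 stands farthest from 0.

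**Figure D5:**
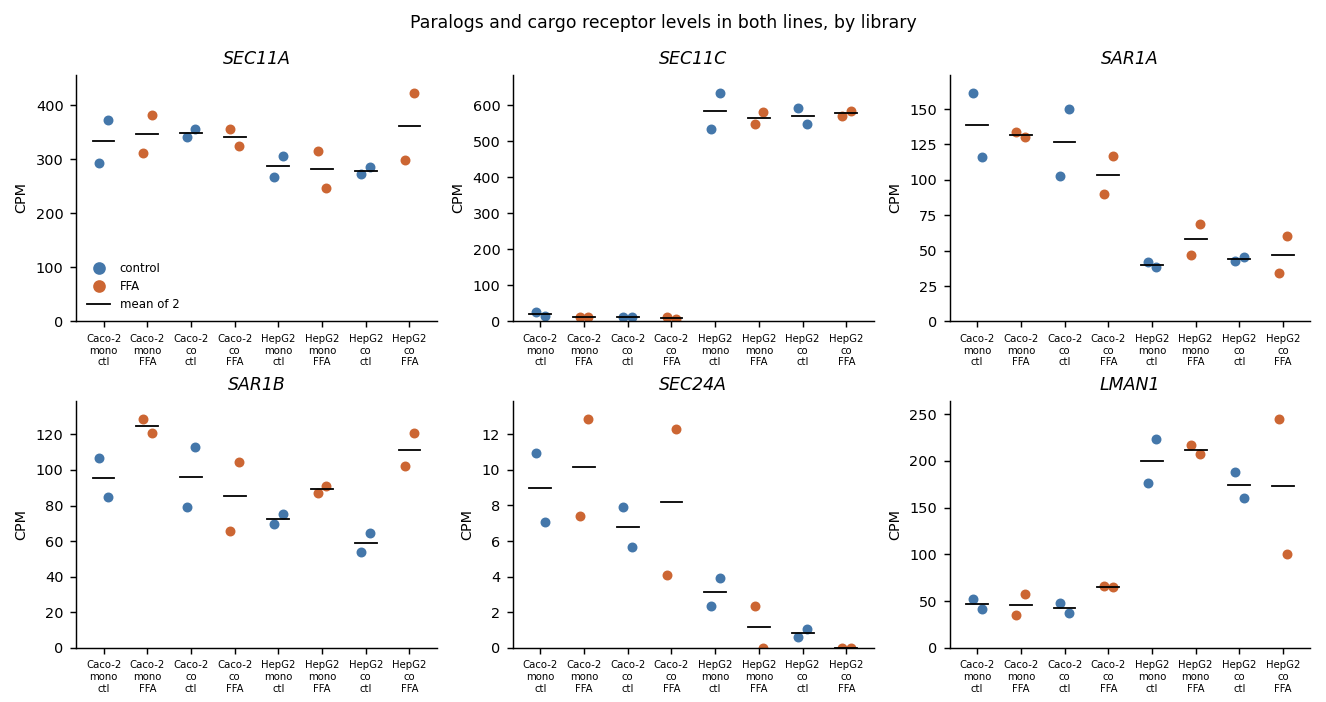
CPM (vertical axes, from 0) of SEC11A, SEC11C, SAR1A, SAR1B, SEC24A and LMAN1 in each of the 16 libraries by line, culture and treatment. Points are libraries and lines are means of 2. SEC11C is at 7.4 to 27.4 CPM in Caco-2 and 534 to 634 CPM in HepG2, SEC11A overlaps between the lines, and SAR1A is lower in every HepG2 library.

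Neighbouring genes of the route were also listed, with earlier results of these data known, so their calls are no independent support. Of 74 other transport genes (SRP, oligosaccharyltransferase, further coat, tether and SNARE genes), 72 were tested in HepG2 and 0 passed limma for FFA averaged over cultures. By edgeR 5 of 47 were higher, namely the SRP subunit SRP9 (0.56), the oligosaccharyltransferase subunits RPN1 (0.98) and MAGT1 (0.82), the tether USO1 (0.93) and YIPF5 (1.40), and 3 were lower, namely SRP14 (-0.40), DAD1 (-0.33) and OST4 (-0.57). Of all genes edgeR called 4.91% higher and 8.36% lower. Of 13 genes of the unfolded-protein response, limma called 3 higher and none lower, where it called 0.0762% of all genes. These were HSPA5, the main ER chaperone (0.97 ± 0.10), HERPUD1, a factor of ER-associated degradation (1.73 ± 0.19), and PDIA4, a disulfide isomerase (1.04 ± 0.13), with limma adjusted p of 0.0372 for each. The median over these 13 was 0.57, over the 74 listed transport genes that were tested 0.20 and over the 50 members 0.36. In Caco-2 0 genes of both lists passed limma for FFA. Between the lines, 28 of the 72 other transport genes tested were higher in HepG2 and 8 lower, where 12.5% of all genes were higher and 17.9% lower.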

How the data were processed

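Polyadenylated RNA of 16 libraries was read as PCR-amplified cDNA on an Oxford Nanopore device. The authors deposited 1 table per library under the name TPM, but 99.3% to 100% of the deposited values are whole multiples of 1 step within 0.05 read, so they were treated as CPM, and reads were recovered from the step. The submitters' processing notes name minimap2 2.22 and GRCh38; whether the Bowtie, STAR and RSEM steps that the authors describe for mRNA-seq were used for these reads is not stated. The design was written for the named unit and was applied to CPM without change.

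Members and context lists were chosen with earlier results of these data known. Genes with a group mean of at least 1 CPM were fitted as log2(CPM + 1) with limma 3.58.1 in R 4.3.3 (4 group means per line, or 8 over both lines; trended prior; Benjamini-Hochberg over all genes; threshold 0.05). A moderated F-test asked for any difference among the 4 groups of a line. edgeR 4.0.16 (quasi-likelihood, TMM, filterByExpr) and DESeq2 1.42.0 on the recovered reads were alternatives. Both were read at the same threshold, and limma and edgeR were tested on simulated data. Members were named when limma or edgeR called them, or for the 10 (averaged FFA contrast) or 3 smallest limma p; for the difference between the lines a selection of the called members is named. Transcript lengths are those of the canonical transcripts in GENCODE 44. Counting intervals and the floor of 3 reads cover counting error only. Within a line, same-numbered replicates did not deviate together (mean correlation 0.012 in Caco-2 and 0.00332 in HepG2), so no pairing was used. Pairing across the lines, as by a shared co-culture chip, is not given in the labels and was not examined. Replicates differed beyond sampling noise in every group (chi-square per gene 1.52 to 2.85), and none was a duplicate.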

Additional observations from a re-analysis of the deposited data

How the results depend on the processing

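Of 2808 values of named members under an alternative, 2527 kept their direction and side of the threshold, 108 lost and 167 gained a call, and 6 reversed. All 6 reversals came after thinning every library to the reads of the shallowest: KDELR1 in HepG2 co-culture without FFA (-0.50), SEC23A (-1.51), SAR1B (0.0090) and KDELR1 (-0.14) in the average difference between the lines, and TMED10 (-0.026) and BET1 (-0.28) in that of mono-culture control. The cause was not tested beyond the thinning, which leaves few reads per member.

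The count for FFA averaged in HepG2 (1 as reported) was 0 with a pseudocount of 0.1, a constant prior variance or thinning, 2 with a minimum mean of 10 CPM, quantile normalization or an adjusted p under 0.1, 9 by edgeR and 8 by DESeq2. TMED2 then had a limma adjusted p of 0.0696 (pseudocount of 0.1), 0.125 (constant prior) and 0.418 (thinned). Over all genes, the split of calls was 8 higher and 3 lower by limma, 4 and 50 after median-ratio rescaling, 198 and 337 by edgeR and 44 and 356 by DESeq2. For FFA in HepG2 co-culture (0 as reported) it was 1 with a pseudocount of 0.1, an adjusted p under 0.1, a minimum mean of 10 CPM, no filter, median-ratio rescaling or quantile normalization, 2 by edgeR and 3 by DESeq2, and for FFA in HepG2 mono-culture (0) it was 1 by edgeR. For the difference of the FFA change between the lines (0) it was 1 with median-ratio rescaling or quantile normalization, 2 with a pseudocount of 0.1, a minimum mean of 10 CPM or an adjusted p under 0.1, and 5 by edgeR and by DESeq2. HepG2 co-culture with FFA (0) gave 1 by quantile normalization and DESeq2, and its average (0) 1 by edgeR and DESeq2. The HepG2 F-test (0) gave 1 with quantile normalization or an adjusted p under 0.1, 6 by edgeR, 3 by DESeq2 and 15 at the study's thresholds (unadjusted p under 0.05 and a fold of 1.2). The Caco-2 F-test (0) gave 2 by edgeR, 1 by DESeq2 and 4 at those thresholds. Caco-2 co-culture with FFA (0) gave 1 by edgeR and with a minimum mean of 10 CPM, and its average (0) gave 2 by edgeR, 1 by DESeq2 and 1 with a minimum mean of 10 CPM. The average line difference (33) gave 11 after thinning, and in mono-culture control (11) 5 with a constant prior, 3 after thinning and 23 by edgeR.

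With the replicate number as a block, 1 member passed for Caco-2 co-culture with FFA and 1 for its average, and no other count moved by over 1.5 times. Within a line the numbers showed no pairing of the samples.

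The median member change for FFA in HepG2 was 0.12 (quantile), 0.081 (median-ratio), 0.21 (edgeR) and 0.17 (DESeq2) averaged, 0.13, 0.076, 0.21 and 0.16 in co-culture, and 0.19 (median-ratio), 0.18 (edgeR) and 0.17 (DESeq2) in mono-culture. Averaged HepG2 co-culture gave -0.16 (median-ratio). In Caco-2 FFA mono-culture gave -0.031 (quantile), -0.033 (median-ratio) and -0.019 (DESeq2), FFA co-culture 0.0040 (quantile), and averaged co-culture -0.16 (quantile), -0.18 (median-ratio), -0.17 (edgeR) and -0.18 (DESeq2).

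Leaving out 1 library at a time, the count ranged from 0 to 16 for FFA averaged in HepG2, 0 to 17 for FFA in HepG2 co-culture, 0 to 9 for the difference of the FFA change between lines and for the HepG2 F-test, 0 to 13 for HepG2 co-culture with FFA, 0 to 7 for HepG2 co-culture averaged, 0 to 4 for the FFA by culture interaction in HepG2 and 0 to 3 in Caco-2, and 5 to 16 for the line difference in mono-culture control. The 16 (11 higher, 5 lower) came without HepG2 co-culture FFA replicate 1, when the shallowest library stood alone in its group and was assumed to vary like the others. Medians ranged from 0.26 to 0.53 for FFA in HepG2 co-culture, from -0.020 to 0.14 for FFA in Caco-2 mono-culture and from -0.15 to -0.0064 for it in co-culture. Without both HepG2 co-culture FFA libraries, an alternative added after seeing the data, FFA in HepG2 mono-culture and co-culture without FFA still called 0 members. Depth limits members with few reads, since 3 reads are 60.4 CPM in the shallowest library.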
